A study of Homo sapiens with 12 samples.

Results

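The libraries numbered 3 among the single HCT116 cells, 1 DASHed and 1 untreated, held the most detected genes of their treatment and were set against numbers 1, 2 and 4. They are 2 of the 8 single-cell libraries and of 12 libraries in all. HCT116 is a line of human colorectal carcinoma cells that grow as an epithelium. Every library was made from total RNA with MATQ-seq, which primes RNA along its length with or without a poly(A) tail. The DASHed group had its ribosomal cDNA removed by scDASH, in which Cas9 is guided to cut ribosomal RNA (rRNA) sequence in the finished library, and the untreated group was left uncut. No drug, genotype change or time point is named for any library, and the cells of both groups were single cells sorted by FACS. Number 3 was chosen by its number of detected genes, so that number and every expression difference of the same libraries are given as descriptions, with no test. A single library against 3 others in each treatment is also no replicated comparison.

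Cells of one line in the same dish differ in the RNA they hold. They stand at different points of the cell cycle, with histone messages made mainly in S phase and mitotic regulators made towards division. Immediate-early genes such as FOS and EGR1 switch on within minutes of a stimulus and off again, and most genes are transcribed in bursts, so that a message present in one cell may be missing from the next.

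The single-cell libraries held 1018815 to 1573513 counts when DASHed and 5545175 to 6008144 when untreated. Number 3 held 1537419 and 6008144 of these. Counts of rRNA, mitochondrial rRNA included, made up 20.5% of DASHed number 3, against 20.5 to 24.4% of the other DASHed cells. They made up 52.9% of untreated number 3, against 49.5 to 52.1% of the other untreated cells. Genes classed as rRNA-like were counted apart. They held another 9.82% of DASHed number 3, against 14.0, 9.34 and 14.8% in numbers 1, 2 and 4. In untreated number 3 they held 26.0%, against 29.2, 21.1 and 28.8%. Values given outside or without rRNA below leave out both classes. Of 8 epithelial markers, KRT8, KRT18 and KRT19 were present in every cell, and CDH1 had 1 and 4 counts in number 3 and at most 21 in any cell. Fibroblast markers summed to 34 counts in DASHed number 3, against 1, 0 and 1 in numbers 1, 2 and 4, and to 41 counts in untreated number 3, against 5, 6 and 4. COL1A1, a chain of type I collagen, supplied 29 and 24 of these counts and was otherwise seen with 1 count in a single cell, while LUM and PDGFRA were at 0 in number 3. The remaining counts of number 3 came from COL1A2, DCN or both. In untreated number 3 that remainder exceeded the whole fibroblast sum of each other untreated cell. Immune markers summed to 24 counts in DASHed number 3, against 0, 1 and 0, and to 22 counts in untreated number 3, against 6, 5 and 3. All 24 DASHed counts and 17 of the 22 untreated counts were CD68, whose sequence overlaps other genes, and CD3E, LYZ and CD74 were at 0. Endothelial markers had 0 counts in DASHed and 1 in untreated number 3, and no erythroid marker was counted. COL1A1 and CD68 were also counted in each of the 4 mini-bulk libraries. Their part in any result below was not tested.

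What the shared numbers mark is not stated in the labels. Of 9668 genes with at least 3 counts in DASHed number 3, 95.2% also had at least 3 counts in untreated number 3, against 75.3, 68.0 and 76.3% in untreated numbers 1, 2 and 4. Whether both libraries of number 3 come from 1 cell was not tested, and they are not counted as 2 replicates below. In what follows a cell means the library of that number in the treatment named.

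With every library thinned to 1018815 counts, DASHed number 3 had 12181 genes with at least 1 count, against 11498, 9897 and 11960 in numbers 1, 2 and 4. Untreated number 3 had 11525 genes, against 10950, 9936 and 11494. Number 3 was highest in both treatments, but in untreated cells it led number 4 by only 31 genes. With rRNA and rRNA-like genes left out before thinning, its DASHed lead over number 4 shrank to 31.2 genes and its untreated lead became 139.5 genes. At a minimum of 10 counts, DASHed number 3 still led, with 6401 genes against 5776, 5133 and 5973. Untreated number 3 did not, with 4393 genes against 4203, 4463 and 4608.

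Protein-coding genes carried the lead. DASHed number 3 had 9612 of them at equal depth, against 8986, 7791 and 9079, and untreated number 3 had 9202, against 8650, 7762 and 8829. Long non-coding genes, pseudogenes and small non-coding RNAs were each detected in greater number in number 4 than in number 3, in both treatments. The counts of number 3 were nevertheless not spread more evenly. Its 100 most abundant coding genes held 22.9% of all coding counts when DASHed, against 19.4, 22.4 and 21.1%, and 19.9% when untreated, against 16.04, 19.5 and 17.1%.

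**Figure D1:**
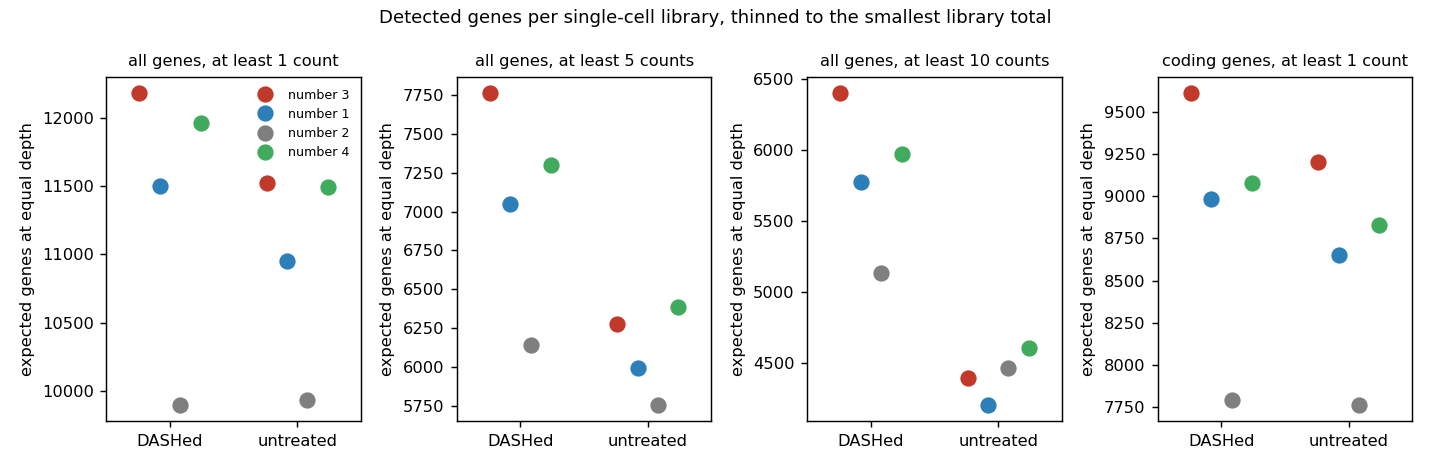
Expected number of genes detected in each single-cell library after thinning to the smallest library total, at a minimum of 1, 5 and 10 counts and for coding genes alone, with 1 point a library. Number 3 (red) is highest in the first and last panels, and in untreated cells falls below number 4 at minimums of 5 and 10 counts.

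Genes seen in number 3 alone were counted, without thinning, as those with at least 3 counts in both of its libraries and none in the other 6. Library totals differ, with that of untreated number 3 the largest, and detected genes chose the cell. Nothing is therefore read from the size of these counts. There were 424, of which 237 were protein-coding, 103 long non-coding and 64 pseudogenes. The same count was 272, 168 and 357 for numbers 1, 2 and 4. The reverse count, of genes missing from number 3 but present with at least 3 counts in all 6 others, was 48, against 156, 399 and 154. Of the 424 genes, 367 (86.6%) were counted in at least 1 mini-bulk library, against 9119 of 9205 (99.1%) of all genes present with 3 counts in both number 3 libraries. These sets were not matched in level or gene class, so the gap is a description only.

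ARHGEF10L, an exchange factor for small GTPases, was the most abundant coding gene seen in number 3 alone, with 124 CPM (a gene's counts divided by the library total, times 1000000) when DASHed and 27.1 CPM when untreated. AMOT, or angiomotin, a junction-associated scaffold that holds YAP, had 84.6 and 20.6 CPM. CYP4F22, a fatty acid hydroxylase, ZSWIM3 and the plexin PLXNB3 completed the first 5 by level, with 78.7 to 89.8 CPM when DASHed. None of the 5 had a single count in numbers 1, 2 and 4. PLXNB3 shares sequence with other genes and is uncertain.

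For each of 8354 genes with a mean of at least 5 CPM, the difference of log2(CPM + 1) between number 3 and the mean of numbers 1, 2 and 4 was taken within each treatment, minus the median over all genes. CPM is lower in untreated libraries because rRNA fills them, so levels are compared only within a treatment, and the added 1 CPM shrinks the differences of low genes. A gene is called higher or lower below when it differed at least 2-fold in both treatments and number 3 lay beyond all 3 others in both. By this rule 1263 genes (15.1%) were higher in number 3 and 812 (9.72%) were lower. The same rule, with each other cell set against its 3 fellows, gave 1256 higher and 1104 lower genes for number 1, 1779 and 1501 for number 2, and 1511 and 1146 for number 4. Because the contrast chose the cell, nothing is read from the size of these counts. Counts over gene lists below are descriptions too, and stand beside the same 15.1% higher and 9.72% lower of all genes tested.

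Called genes were mostly protein-coding, with 1182 higher and 752 lower. DASHed and untreated differences of the same gene lay close together, with a Pearson r of 0.92 and a Spearman rho of 0.92 over the 8354 genes and the same sign in 88.6% of them. Transcript length ran little with the difference, at a rho of 0.04, and GC content had a rho of 0.08. Protein-coding genes alone were split into 5 equal groups of GC content. Those with the lowest content were called higher in 8.62% and lower in 12.1% of cases, against 19.5% and 10.3% in the group with the highest. The part of base composition in the differences was not tested.

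**Figure D2:**
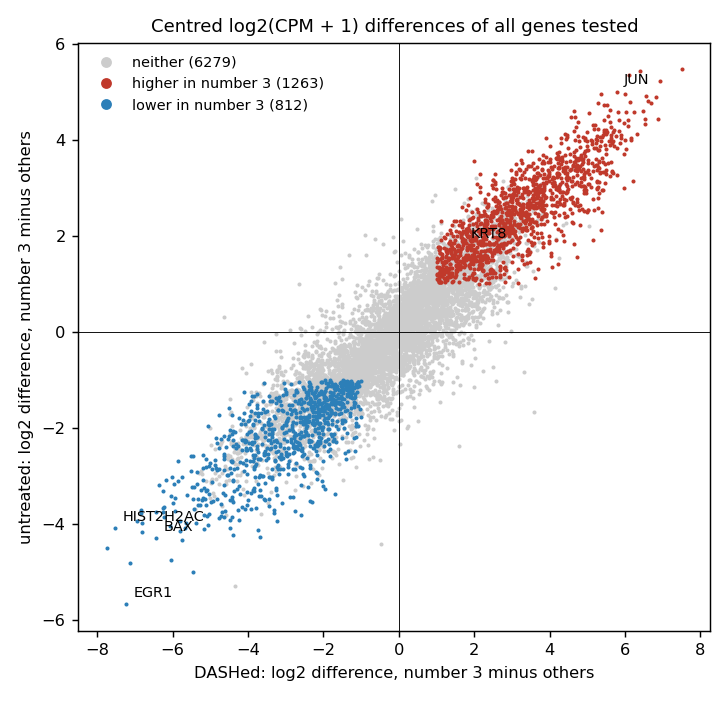
Centred log2(CPM + 1) difference of number 3 minus the mean of numbers 1, 2 and 4, in DASHed libraries (x axis) and untreated libraries (y axis), with 1 point for each of 8354 genes. The 1263 genes called higher (red) and 812 called lower (blue) run along the diagonal, from EGR1 at the lower left to JUN towards the upper right.

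CPA4, a carboxypeptidase, was among the coding genes with the largest differences on the high side. It had 154 CPM in DASHed number 3, against 0 in each other DASHed cell, at least 200-fold higher when 3 counts over the other 3 cells together are taken as the floor. The bound was 133-fold without number 1 and 120-fold without number 4. Its untreated level was 41.4 CPM in number 3, against 0, 0.180 and 0.176 CPM.

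ANO1, the calcium-activated chloride channel, reached 568 CPM in DASHed number 3, against 0, 0 and 146 CPM in numbers 1, 2 and 4. Untreated number 3 had 135 CPM, against 0, 0 and 29.5 CPM. Number 4 was thus the only other cell with the message, and the untreated ratio to the pooled others was 13.8 (exact 95% Poisson interval 11.6 to 16.4). ANO1 shares more than 10% of its exonic sequence with another gene and is uncertain. PTPRU, a receptor tyrosine phosphatase found at cell contacts, showed a like pattern, with 324 CPM in DASHed number 3, against 0, 0 and 50.2 CPM. It had 73.6 CPM in untreated number 3, against 0, 0 and 4.94 CPM. Intervals of this kind cover counting error only.

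MICAL2, an enzyme that oxidises actin in the nucleus, had 251 CPM in DASHed number 3, against 0, 28.5 and 0 CPM, and 76.6 CPM in untreated number 3, against 0.347, 10.1 and 0 CPM. Other leading coding genes were KIAA0556, the mitochondrial topoisomerase TOP1MT, the inositol phosphatase INPP5K, the hormone-sensitive lipase LIPE and TMEM255B. They had 135 to 185 CPM in DASHed number 3, against at most 2.54 CPM in any other DASHed cell. Among non-coding genes, the transcript AC091057.1 had 93.0 CPM in DASHed number 3, against 17.3, 1.96 and 2.54 CPM, and 41.9 CPM in untreated number 3, against 11.6, 3.43 and 2.29 CPM. RF00004, the family name under which U2 spliceosomal RNA is counted, had 191 CPM in DASHed number 3, against 0, 0 and 49.6 CPM. It had 31.3 CPM in untreated number 3, against 2.43, 7.39 and 12.7 CPM, and is uncertain because the family holds many copies.

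**Figure D3:**
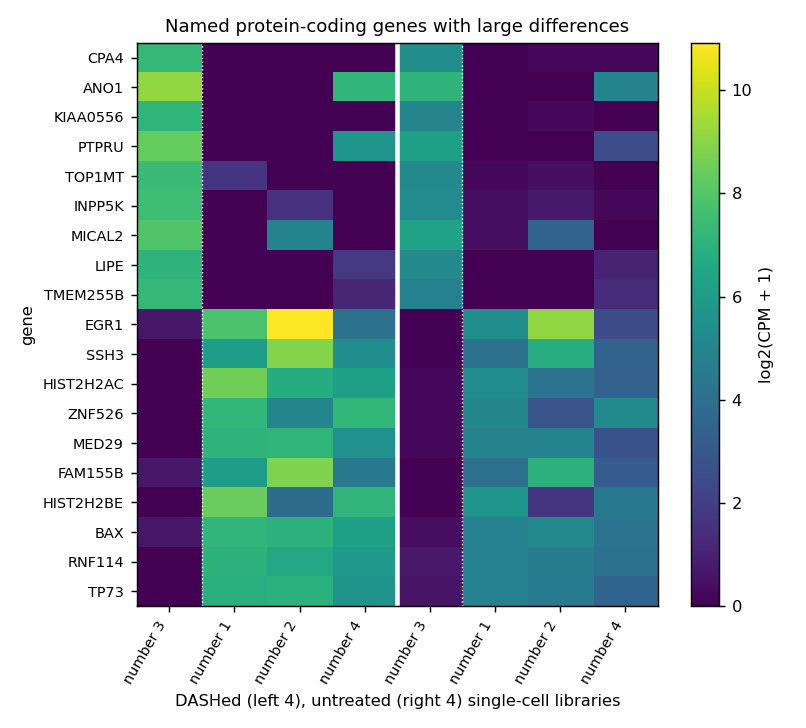
log2(CPM + 1) of coding genes named by the rule for their large differences, 9 higher and 10 lower, in the 4 DASHed (left) and 4 untreated (right) single-cell libraries, number 3 first in each block. The 9 upper genes are bright in number 3 and mostly dark elsewhere, and the 10 lower genes are dark in number 3 and present in the other 3 cells of both treatments.

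On the low side, BAX, the pore-forming protein of the mitochondrial path to cell death, had 1 count in DASHed number 3, against 143, 133 and 74.4 CPM in numbers 1, 2 and 4. In untreated number 3 it had 2 counts, against 26.9, 34.4 and 16.8 CPM. Number 3 was low and the other 3 cells lay within a narrow band, with a DASHed ratio of 0.00575 (0.000145 to 0.0322). MED29, a subunit of the Mediator complex, was at 0 in DASHed number 3, against 138, 141 and 45.1 CPM, at least 52.1-fold lower. TP73, of the p53 family, was at 0 in DASHed number 3, against 115, 126 and 49.6 CPM, at least 46.8-fold lower. RNF114, a ubiquitin ligase, was at 0 there too, against 131, 94.2 and 58.5 CPM.

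SSH3, a phosphatase that activates the actin-severing protein cofilin, was at 0 in both libraries of number 3. It had 69.4, 470 and 40.0 CPM in the DASHed numbers 1, 2 and 4 and 16.3, 111 and 10.1 CPM in the untreated ones, which makes number 3 at least 82.9-fold and 90.2-fold lower. Number 2 carries these bounds, which were 27.4-fold and 26.5-fold without it. FAM155B had 1 count and 0 in number 3, and again number 2 was highest, with 442 CPM when DASHed and 128 CPM when untreated. The zinc finger gene ZNF526 was at 0 in DASHed number 3, against 149, 30.4 and 151 CPM. Among the named genes not annotated as protein-coding, AC018665.1 had the largest difference. It was at 0 in DASHed number 3, against 238, 129 and 156 CPM, and it overlaps another gene. The transcriptional inhibitor ID2 was likewise at 0 in both libraries of number 3, but its high level elsewhere was that of 1 cell, with 3.02, 644 and 2.54 CPM in DASHed and 2.61, 182 and 1.59 CPM in untreated numbers 1, 2 and 4.

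Immediate-early genes split in both directions. Of 16 tested, JUN, FOS, IER5 and KLF6 were higher in number 3 and EGR1, FOSB, JUNB, IER2, KLF10 and ZFP36 were lower, with a list median of −0.78 beside 0.01 over all genes tested. EGR1, a zinc finger activator (GENCODE v29, GRCh38, chr5:138465490-138469315, plus strand), had the largest difference of any coding gene lower in number 3. It had 1 count in DASHed number 3, against 223, 1940 and 16.5 CPM in numbers 1, 2 and 4. In untreated number 3 it had 0 counts, against 41.3, 546 and 4.59 CPM, at least 388-fold lower, or 46.3-fold without number 2. Number 2 held most EGR1, and number 4 was nearest to number 3.

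EGR1 is a textbook target of serum response factor (SRF), which binds the CArG box and also drives many actin cytoskeleton genes. Its promoter window is shown beside that of FLNA, the actin crosslinker filamin A. Both carry the box, while their levels in number 3 lay on opposite sides. FLNA was picked after its values were seen, and any part of SRF in these levels was not tested. The windows run from 250 bases before to 50 bases after the RefSeq start (GRCh38.p14), EGR1 at chr5:138465229-138465528 on the plus strand and FLNA at chrX:154374585-154374884 on the minus strand. Capitals mark each CArG box, CC, 6 bases of A or T, then GG, which reads alike on both strands.
EGR1: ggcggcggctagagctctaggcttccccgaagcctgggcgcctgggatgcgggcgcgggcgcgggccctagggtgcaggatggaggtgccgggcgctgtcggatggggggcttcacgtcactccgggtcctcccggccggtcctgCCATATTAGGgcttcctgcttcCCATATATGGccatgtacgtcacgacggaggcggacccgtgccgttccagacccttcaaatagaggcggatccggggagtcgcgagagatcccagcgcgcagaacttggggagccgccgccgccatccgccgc
FLNA: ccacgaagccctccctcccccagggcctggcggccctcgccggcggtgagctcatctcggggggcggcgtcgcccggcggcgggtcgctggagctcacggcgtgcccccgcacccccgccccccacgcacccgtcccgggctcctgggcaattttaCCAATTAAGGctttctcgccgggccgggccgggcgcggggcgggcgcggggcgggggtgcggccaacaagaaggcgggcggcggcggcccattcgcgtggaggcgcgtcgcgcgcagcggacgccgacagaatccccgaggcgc
The EGR1 boxes begin 105 and 83 bases before the start and the FLNA box 94 bases before it. Of 35116 RefSeq windows of 300 bases, 454 (1.29%) hold a box. Among the immediate-early genes tested, 1 of 12 with a window held one, and 5 of 45 of the actin and adhesion list described below did, namely ACTG1, ACTN1, CNN2, FLNA and TPM4. A match is a description of these letters and not a binding site measured here.

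JUN, a subunit of the AP-1 factor, had 282 CPM in DASHed number 3, against 65.6, 0 and 0 CPM. Untreated number 3 had 65.1 CPM, against 7.47, 0 and 0 CPM, so that only number 1 shared the message. FOS, its partner, had 120 CPM in DASHed number 3, against 102, 11.8 and 0 CPM, and 32.5 CPM in untreated number 3, against 25.5, 3.61 and 0 CPM, close to number 1 in both treatments. KLF6 had 84.6 CPM in DASHed number 3, against 0, 39.3 and 0 CPM. IER5 had 59.8 CPM in DASHed number 3, against 4.53, 0 and 0 CPM. JUNB, an AP-1 subunit, went the other way, with 59.8 CPM in DASHed number 3, against 140, 1678 and 218 CPM, and 12.2 CPM in untreated number 3, against 23.3, 407 and 34.1 CPM. JUNB overlaps other transcripts and is uncertain. FOSB had 11.7 CPM in DASHed number 3, against 393, 127 and 16.5 CPM, and number 4 again lay nearest. KLF10 had 55.9 CPM in DASHed number 3, against 69.4, 824 and 250 CPM. Summed over the list, number 3 was the lowest cell of both treatments, at 1055 CPM against 1554, 5585 and 1140 CPM when DASHed and 265 CPM against 329, 1545 and 285 CPM when untreated, close to number 4 in both.

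Genes of DNA replication and replication-dependent histones were examined together, as both serve S phase. Of 34 S phase genes tested, 6 were higher, a share near that of all genes, among them MCM2, MCM5, MCM6, PCNA and UHRF1, and WDR76 was lower. The list median was 0.46, and −0.01 when genes needed a mean of 20 CPM. MCM5, a subunit of the replicative helicase, had 1245 CPM in DASHed number 3, against 177, 809 and 205 CPM, and 284 CPM in untreated number 3, against 39.4, 204 and 36.5 CPM. Number 2 approached number 3 and the other cells lay far below. MCM6, of the same helicase, had 88.5 CPM in DASHed number 3, against 30.9, 0 and 1.91 CPM. PCNA, the polymerase clamp, had 148 CPM in DASHed number 3, against 37.7, 16.7 and 36.2 CPM, and 42.3 CPM in untreated number 3, against 18.8, 12.4 and 18.4 CPM. Summed S phase levels were highest in number 3, at 3097 CPM against 1490, 2010 and 1548 CPM when DASHed and 927 CPM against 598, 817 and 654 CPM when untreated. MCM5 alone supplied 1245 and 284 CPM of the sums in number 3, and 809 and 204 CPM of those in number 2.

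Replication-dependent histones gave 11 lower and 0 higher of 38 tested, with 37 of 38 below 0 and a median of −1.91, or −2.76 with genes absent from a whole group set at their bound. Their messages lack a poly(A) tail and are captured here through total RNA. HIST2H2AC was at 0 in DASHed number 3, against 376, 108 and 73.7 CPM, at least 94.8-fold lower, or 44.7-fold without number 1, and had 1 count in untreated number 3, against 38.9, 16.8 and 9.88 CPM. HIST2H2BE was at 0 in both libraries of number 3, against 345, 13.7 and 140 CPM in the DASHed cells. HIST1H4J was at 0 as well, against 58.8, 98.2 and 35.6 CPM in the DASHed cells. Histone genes are near copies of each other, so single members are uncertain. The sum over the list was 904 CPM in DASHed number 3, against 14060, 1253 and 1471 CPM, and 162 CPM in untreated number 3, against 2218, 273 and 262 CPM. Number 1 stands far above the rest, and number 3 was the lowest of all cells also beside numbers 2 and 4.

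Regulators of G1 and of mitosis were mixed. Of 10 G1 regulators, CDK2, CDK6 and SKP2 were higher and E2F1 and E2F3 lower. CDK6, a cyclin D kinase, had 533 CPM in DASHed number 3, against 59.6, 114 and 166 CPM, and 173 CPM in untreated number 3, against 19.8, 47.8 and 93.5 CPM. SKP2, which targets the inhibitor p27 for breakdown, had 110 CPM in DASHed number 3, against 2.26, 0 and 10.2 CPM, but 24.8 CPM in untreated number 3, against 7.12, 3.97 and 15.0 CPM. E2F1, an activator of S phase genes, was at 0 in DASHed number 3, against 2.26, 39.3 and 76.9 CPM. Of 42 G2 and mitosis genes, HJURP, TACC3, CDCA2 and CDCA8 were higher and BIRC5, BUB1, CKAP5 and CCNB1 were lower. HJURP, the chaperone that loads the centromeric histone CENP-A, had 276 CPM in DASHed number 3, against 75.4, 0 and 0.636 CPM. BIRC5, or survivin, a part of the chromosomal passenger complex, had 40.3 CPM in DASHed number 3, against 180, 152 and 206 CPM, and 7.32 CPM in untreated number 3, against 28.8, 31.02 and 36.9 CPM. In BIRC5 number 3 alone was low and the other 3 cells lay close together.

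**Figure D4:**
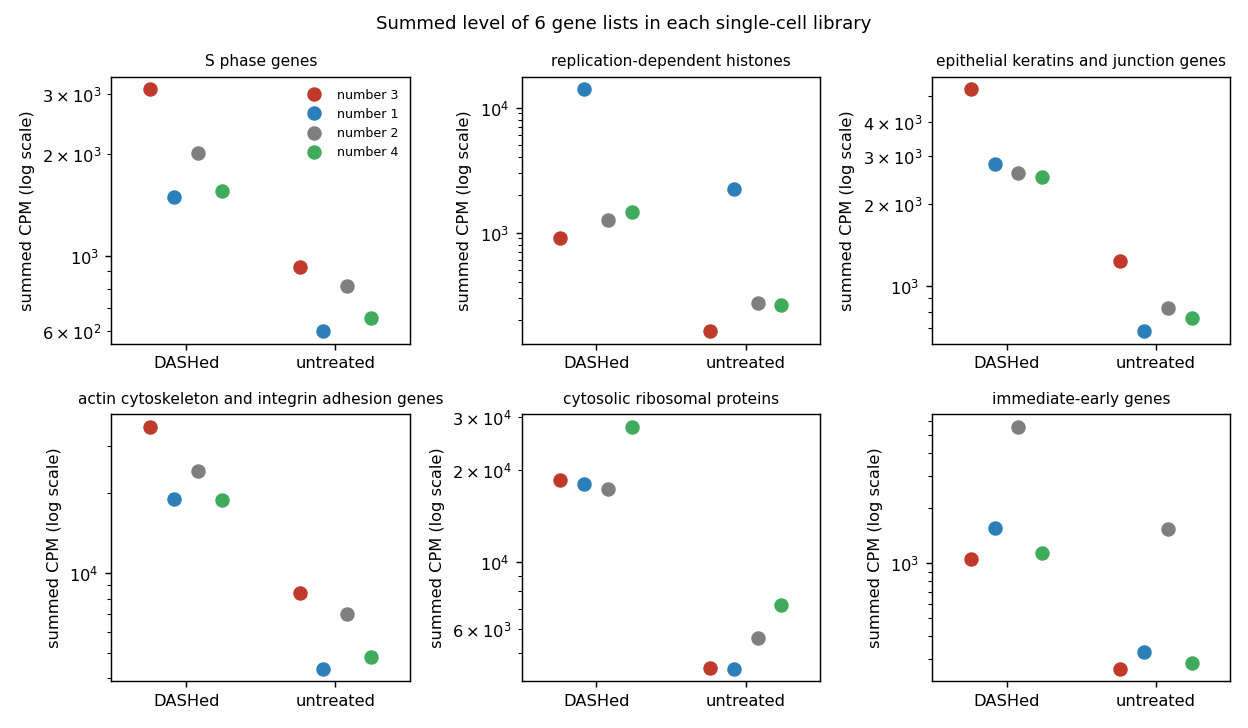
Summed CPM (log scale) of 6 gene lists in each single-cell library, with 1 point a library, DASHed at left and untreated at right in each panel. Number 3 (red) is the highest cell for S phase genes, keratin and junction genes, and actin genes in both treatments. It is the lowest for histones and immediate-early genes in both, and lies near number 1 for ribosomal proteins. KRT8 and KRT18 supply most of the keratin and junction sum in number 3.

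Keratins of simple epithelia were higher in number 3. KRT8, which pairs with KRT18 to build the filaments of these cells, had 2444 CPM in DASHed number 3, against 707, 616 and 480 CPM, and 472 CPM in untreated number 3, against 150, 164 and 96.7 CPM. The other 3 cells lay close together and number 3 stood clear of them, with ratios of 4.13 (3.92 to 4.35) and 3.45 (3.27 to 3.65). KRT18 had 1190 CPM in DASHed number 3, against 269, 164 and 472 CPM, and 279 CPM in untreated number 3, against 54.9, 44.2 and 120 CPM. KRT19 had 535 CPM in DASHed number 3, against 326, 112 and 137 CPM. KRT8 and KRT18 have many processed pseudogenes and are uncertain.

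Junction genes did not move with the keratins. CLDN4, a tight junction claudin, had 11.7 CPM in DASHed number 3, against 27.2, 245 and 44.5 CPM. CTNNA1, or alpha-catenin, which ties cadherins to actin, had 68.9 CPM in DASHed number 3, against 200, 169 and 283 CPM, and 16.8 CPM in untreated number 3, against 47.2, 50.9 and 89.3 CPM. The desmosomal cadherin DSG2 was also lower. The whole list of 17 thus had 3 higher and 3 lower, and its median of 0.51 became −0.02 in untreated cells alone. EPCAM, the adhesion molecule used to sort epithelial cells, was not called, with 27.3 CPM in DASHed number 3, against 21.1, 0 and 54.0 CPM. The list sum was 5285 CPM in DASHed number 3, against 2807, 2603 and 2507 CPM. KRT8 and KRT18 supplied 2444 and 1190 CPM of it in number 3, so the sum is no measure of the junction genes.

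A list of actin cytoskeleton and integrin adhesion genes was added after their values were seen, so its count is a description of chosen genes. Of 56 tested, 10 were higher, a share near the 15.1% of all genes, and 2 were lower, with a median of 0.48. ACTN4, the actin-bundling protein alpha-actinin of non-muscle cells, had 4175 CPM in DASHed number 3, against 617, 1801 and 1840 CPM, and 989 CPM in untreated number 3, against 138, 494 and 426 CPM. VCL, or vinculin, of focal adhesions, had 385 CPM in DASHed number 3, against 37.7, 0 and 23.5 CPM, and 103 CPM in untreated number 3, against 17.5, 7.39 and 15.7 CPM. Both share sequence with other genes and are uncertain. ACTN1, the sister alpha-actinin, had 461 CPM in DASHed number 3, against 52.8, 130 and 127 CPM. MYH9, a non-muscle myosin heavy chain, had 1650 CPM in DASHed number 3, against 658, 567 and 262 CPM. RHOB, a small GTPase that acts on actin and endosomes, had 167 CPM in DASHed number 3, against 23.4, 4.91 and 0 CPM, and 43.1 CPM in untreated number 3, against 3.13, 1.80 and 0.176 CPM.

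FLNA was above every other cell in both treatments but was not called, since its DASHed difference of 0.98 fell short of 1 on the log2 scale. It had 4043 CPM in DASHed number 3, against 1192, 2877 and 1244 CPM, and 902 CPM in untreated number 3, against 215, 720 and 260 CPM. TPM2, a tropomyosin, was lower, with 4 counts in DASHed number 3, against 24.9, 104 and 38.1 CPM. The remaining called members were PLEC, ZYX, TAGLN2, ITGAV and RHOC on the high side and RDX on the low side. A pair of matrix genes outside every list was named after their values were seen. SPARC, which binds collagen, had 1019 CPM in DASHed number 3, against 0, 319 and 27.3 CPM, and THBS1, or thrombospondin, had 306 CPM, against 3.77, 0 and 29.9 CPM. The COL1A1 counts given above stand beside these values, and their part was not tested.

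Cytosolic ribosomal proteins gave 15 lower and 0 higher of 77 tested, with a median of −0.73 and 68 of 77 below 0. Members of the small subunit included RPS13, RPS14, RPS15A, RPS19, RPS26, RPS27, RPS27A, RPS28 and RPS29 among these. RPS13 had 11.7 CPM in DASHed number 3, against 61.1, 36.3 and 72.4 CPM, and 7.99 CPM in untreated number 3, against 40.5, 18.8 and 40.4 CPM. RPS19 had 50.7 CPM in DASHed number 3, against 274, 106 and 147 CPM. The abundant stalk protein RPLP0 was not called, with 2074 CPM in DASHed number 3, against 1421, 1216 and 2240 CPM. The list sum therefore did not set number 3 apart, at 18495 CPM against 18039, 17379 and 27806 CPM when DASHed and 4456 CPM against 4443, 5613 and 7201 CPM when untreated. RPS13 and RPLP0 have processed pseudogenes and are uncertain.

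Nuclear-encoded subunits of the respiratory chain gave NDUFC1, NDUFV1, COX6A1 and COX7C lower and 0 higher of 46 tested, with a median of −0.71. The share lower was near the 9.72% of all genes tested. NDUFV1, which holds the NADH site of complex I, had 3 counts in DASHed number 3, against 145, 165 and 83.3 CPM, and 3 counts in untreated number 3, against 25.9, 41.1 and 22.9 CPM. COX6A1, of cytochrome c oxidase, had 3 and 4 counts, against 78.2 to 138 CPM in the DASHed and 12.2 to 22.6 CPM in the untreated cells. The other 3 cells were thus alike in both genes, each of which overlaps other transcripts. All 13 mitochondrial mRNAs lay below 0, none was called, and the median was −0.41. Their sum was nevertheless lowest in number 1. It was 9447 CPM in DASHed number 3, against 9264, 13287 and 12259 CPM in numbers 1, 2 and 4. In untreated number 3 it was 14021 CPM, against 13049, 22730 and 15142 CPM. MT-CO1 had 2810 CPM in DASHed number 3, against 2948, 3920 and 4120 CPM, but 3572 CPM in untreated number 3, against 3440, 5640 and 4258 CPM. Both mitochondrial rRNAs also lay below 0. MT-RNR1 had 20188 CPM in DASHed number 3, against 33854, 45739 and 26244 CPM, and MT-RNR2 had 20742 CPM, against 37315, 42011 and 23924 CPM. In untreated cells number 3 was lowest in MT-RNR1, at 22786 CPM against 31730, 47715 and 23420 CPM, and number 4 was lowest in MT-RNR2.

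Mitochondrial ribosomal proteins were divided, with 6 higher and 7 lower of 55. MRPL4 had 339 CPM in DASHed number 3, against 30.9, 1.96 and 21.0 CPM, and MRPS12 had 10.4 CPM, against 79.9, 50.1 and 90.2 CPM. Both share sequence with other genes.

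Small non-coding RNA took the smallest share of counts in number 3, 0.936% (exact binomial 95% interval 0.921 to 0.951) when DASHed, against 1.81, 1.19 and 1.99%, and 0.145% (0.142 to 0.149) when untreated, against 0.243, 0.245 and 0.295%. Most of these counts stood under RF00100, the family name of 7SK, the RNA that holds the elongation factor P-TEFb inactive. It had 7575 CPM in DASHed number 3, against 16098, 9799 and 17469 CPM, and 1072 CPM in untreated number 3, against 2020, 1815 and 2399 CPM. Number 3 was lowest in both treatments, with ratios of 0.505 (0.495 to 0.515) and 0.515 (0.502 to 0.529), but RF00100 did not reach the rule in untreated cells and the family covers several copies. RMRP, the RNA of RNase MRP, was lower, with 61.1 CPM in DASHed number 3, against 193, 291 and 272 CPM, and its name covers more than 1 annotated gene. Host genes of small nucleolar RNAs gave SNHG1, SNHG4, SNHG17 and GAS5 lower and SNHG20 higher of 12 tested. GAS5 had 3.90 CPM in DASHed number 3, against 30.9, 42.2 and 15.3 CPM, but 12.3 CPM in untreated number 3, against 12.7, 44.7 and 33.9 CPM, where number 1 lay close.

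Chaperones were split. Of 23 heat shock proteins and chaperonins, HSPA1B, DNAJB1 and CCT4 were higher and HSPE1, TCP1 and CCT2 lower. HSPA1B, an inducible HSP70, had 828 CPM in DASHed number 3, against 188, 57.9 and 19.1 CPM, and 205 CPM in untreated number 3, against 47.8, 19.8 and 2.29 CPM. It has a near-identical neighbour and is uncertain. CCT4 and CCT2 belong to one folding ring, yet CCT4 had 91.1 CPM in DASHed number 3, against 0, 6.87 and 5.72 CPM, and CCT2 had 7.15 CPM, against 53.6, 51.0 and 21.0 CPM. ATF4, the activator of the integrated stress response, was lower, with 46.8 CPM in DASHed number 3, against 229, 214 and 277 CPM. XBP1, an activator of the unfolded protein response, was higher, with 41.6 CPM in DASHed number 3, against 6.03, 19.6 and 0 CPM, as were SDF2L1 and CRELD2. The stress response list of 10 had a median of 1.03, and of −0.05 without number 4.

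Targets of p53 gave PHLDA3 and DDB2 higher and BAX and GDF15 lower of 11 tested. PHLDA3, an inhibitor of AKT signalling, had 122 CPM in DASHed number 3, against 75.4, 46.1 and 2.54 CPM. DDB2, of nucleotide excision repair, had 31.2 CPM in DASHed number 3, against 30.9, 0 and 0 CPM, so that number 1 held as much. The list median of 1.22 became −0.52 when a mean of 20 CPM was required.

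Cholesterol genes were higher in 5 and lower in 1 of 19 cases, with a median of 0.52. LSS, which closes the sterol rings, had 127 CPM in DASHed number 3, against 0, 7.85 and 54.7 CPM, and 28.8 CPM in untreated number 3, against 0.174, 3.79 and 8.29 CPM. Number 3 stood clear of the other 3 cells. SQLE and MVK were higher too and EBP was lower. Of 17 glycolytic enzymes, HK2 and PFKL were higher, a share below that of all genes, and none was lower. HK2, a hexokinase, had 91.1 CPM in DASHed number 3, against 0, 0.982 and 0.636 CPM, and PFKL, a phosphofructokinase, had 147 CPM, against 30.2, 0 and 29.2 CPM. HK2 shares sequence with another gene and is uncertain.

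The antigen presentation list had 3 higher, among them HLA-E and TAP2, and B2M lower of 10. TAP2, a subunit of the peptide transporter, had 107 CPM in DASHed number 3, against 0, 6.87 and 15.9 CPM, and B2M, the light chain of every class I molecule, had 8.46 CPM, against 16.6, 20.6 and 65.5 CPM. In the Wnt list of 15, TCF7L2, the DNA-binding partner of beta-catenin, was higher, with 585 CPM in DASHed number 3, against 284, 291 and 109 CPM. APC, which marks beta-catenin for breakdown, was lower, with 5.20 CPM in DASHed number 3, against 17.3, 29.4 and 11.4 CPM.

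Zinc finger genes, the largest list, had 33 higher and 19 lower of 164. ZNF692 had 219 CPM in DASHed number 3, against 0.754, 126 and 0 CPM, and ZNF672 had 1 count, against 12.8, 247 and 29.2 CPM. Proteasome subunits gave 1 higher and 5 lower of 29, with a median of −0.37, or 0.11 with no filter. Other lists of general machinery were near balance or short of calls. Translation factors gave 1 higher and 3 lower of 29, splicing proteins 2 and 3 of 30, chromatin modifiers 4 and 5 of 33, and nuclear pore genes 3 and 2 of 27. Besides those marked above, MCM2, UHRF1, CDK2, IER2, TCP1, ATF4, PHLDA3, TAP2, HLA-E, RHOC, SNHG1, SNHG4, RPS29, MT-CO1 and MT-RNR2 share sequence or exonic bases with other genes and are uncertain. Of 31 lists with a tested member, 16 had a median above 0 and 15 below.

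**Figure D5:**
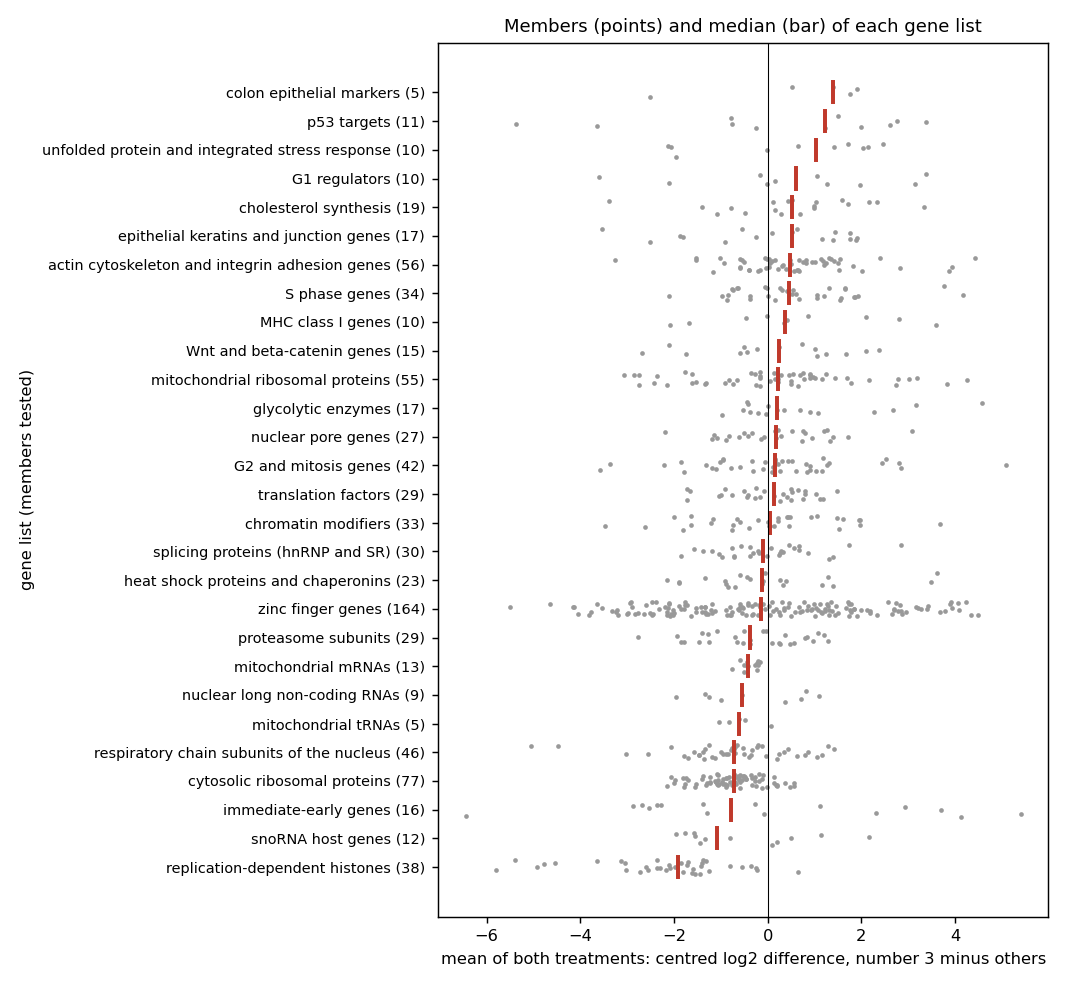
Centred log2 difference of number 3 minus numbers 1, 2 and 4, mean of both treatments, for the tested members (points) of each list with at least 5 of them, and the list median (bar). Lists run from colon epithelial markers and p53 targets at the top to small nucleolar RNA hosts and histones at the bottom, and most lists spread over both sides of 0.

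The mini-bulk libraries took no part in choosing the cell, and the levels of these genes in them are given as a description. The genes themselves were picked by a filter and a rule on single-cell levels that include number 3. Some genes higher in number 3, such as ARHGEF10L and AMOT, passed the filter through it alone, so nothing is read from these medians. Genes higher in number 3 had a median of 24.8 and 23.9 CPM in the DASHed mini-bulk libraries, the same as all genes tested at 24.8 and 23.9 CPM. Genes lower in number 3 had 25.7 and 27.5 CPM there. In untreated mini-bulk libraries the medians were 5.31 and 6.72 CPM for genes higher in number 3, 7.47 and 9.31 CPM for genes lower, and 6.64 and 8.10 CPM for all genes tested. Between 97.8 and 98.8% of the genes higher in number 3 were detected in a given mini-bulk library, against 96.8 to 98.3% of all genes tested.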

How the data were processed

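Total RNA of 12 HCT116 libraries was measured, and the 8 single-cell libraries were compared as number 3 against numbers 1, 2 and 4 within each treatment. The deposited values are estimated counts of each gene, with no scaling to depth, and 31.2 to 55.9% of nonzero ones are fractional. The submitters' processing notes name kallisto 0.46.2 as the source of the estimates. Not given in the sources used here: genome build, annotation and strand handling. The program divides reads that fit several transcripts, so near-identical genes depend on each other. Estimated counts were rounded to whole numbers. Of 57134 genes, 57130 matched GENCODE v29 names after 52 damaged names were restored. Genes sharing at least 10% of their 31-base words or exonic bases with other genes are called uncertain.

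CPM was taken over the library total. The calling rule (pseudocount 1 CPM, mean of at least 5 CPM, 2-fold, median-centred) stands in the report. Detected genes were thinned by the exact hypergeometric expectation. Ratios pool numbers 1, 2 and 4, and with no counts in a group they use a floor of 3 counts over that group. All intervals are exact at 95% and cover counting error only. No test was made. Python 3.11.15 and edgeR 4.0.16 (R 4.3.3), the second for TMM factors as an alternative scaling alone, were used, and the calling script was tested on simulated data.

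The members, lists and rules were chosen with earlier results of these data known. The rule for named genes took, at a mean of at least 20 CPM, the 10 coding genes and 3 other genes of largest difference each way, up to 2 called members each way of every list (or its most abundant member) and up to 5 coding genes seen only in, or missing only from, number 3. It gave 103 genes, some of which are not reported here. A further 51 were named after their values were seen, among them the remaining members of lists with few calls, FLNA, SPARC, THBS1, CD68 and COL1A1. The promoter windows come from RefSeq (GRCh38.p14), matched by symbol. Fold bounds without 1 library and detected genes without 1 number were added after the data were seen.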

Additional observations from a re-analysis of the deposited data

Results flagged for a closer look

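Within a treatment, 268 sets of 4 values were screened for a cell far from the other 3 (by Dixon's ratio), and 71 (26.5%) showed one. Chance flags about 1 in 20 sets, but many sets here are genes chosen because number 3 stood apart, and a set with 3 values of 0 always shows one, so the share is not set against that rate. Of 58 such sets for single genes, 42 pointed to number 3. No explanation was tested for any of them.

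Number 3 stood far above the others in both treatments for a first set of genes, given as DASHed then untreated CPM. These were CPA4 (154 and 41.4), KIAA0556 (142 and 30.6), PTPRU (324 and 73.6), TOP1MT (174 and 34.6), INPP5K (185 and 37.6), MICAL2 (251 and 76.6), LIPE (135 and 34.5) and TMEM255B (154 and 26.8). They also included MRPL4 (339 and 75.2), RHOB (167 and 43.1), VCL (385 and 103), ARHGEF10L (124 and 27.1), AMOT (84.6 and 20.6), HK2 (91.1 and 29.3) and THBS1 (306 and 72.9). CD68 (15.6 and 2.83) and COL1A1 (18.9 and 3.99) stood out alike at low levels. It was highest in both treatments, but far from the others only when DASHed, for AC091057.1 (93.0 CPM), SKP2 (110 CPM), CCT4 (91.1 CPM), KRT8 (2444 CPM), TAP2 (107 CPM), IER5 (59.8 CPM) and PCNA (148 CPM). For JUN it was likewise highest in both, but far from the others only when untreated (65.1 CPM). The summed epithelial keratin and junction genes (5285 CPM, DASHed) and colon epithelial markers (4208 CPM DASHed, 869 CPM untreated) were also far highest in number 3. KRT8, KRT18 and KRT19 make up nearly all of the marker sum, and KRT8 and KRT18 most of the keratin and junction sum. KRT8 and KRT18 are uncertain. Of the other markers, CLDN4 was lower and EPCAM was not called.

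For several genes the distant cell was another. Number 2 was far highest for EGR1 (1940 and 546), SSH3 (470 and 111), FAM155B (442 and 128), CLDN4 (245 and 86.2), ZNF672 (247 and 75.6), ID2 (644 and 182) and JUNB (1678 and 407), again DASHed then untreated CPM. Its summed immediate-early genes (5585 and 1545 CPM), untreated heat shock genes (3456 CPM) and untreated p53 targets (231 CPM) were far highest too. Number 3 was the lowest cell in each of these genes in both treatments. Number 1 was far highest for summed histones (14060 and 2218 CPM) and for the rRNA share of DASHed cells (24.4%). Number 4 was far highest for the summed ribosomal proteins (27806 CPM), mitochondrial tRNAs (132 CPM, a share of 0.0132%), all DASHed, and for untreated B2M (59.995 CPM) and CDH1 (3.71 CPM).

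The heat shock and chaperonin list stood at opposite ends in the 2 treatments. Its sum in number 3 was the highest of the DASHed cells, at 4699 CPM against 3628 to 4339 CPM, and the lowest of the untreated cells, at 2232 CPM against 2260 to 3456 CPM. The untreated gap to number 4 lies within counting error, and as a rate over counts outside rRNA the untreated sum was 10580 in number 3, against 12229, 12739 and 10410, so that number 4 was lowest. The difference was not tested.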

How the results depend on the processing

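No paired analysis was possible because the number itself is compared, and 1 library against 3 allows no test. The count of 1263 genes higher became 535 at a mean of at least 20 CPM, 2324 with no filter and 798 at 4-fold. The count of 812 genes lower became 530 at a mean of at least 20 CPM, 520 with a pseudocount of 5 CPM and 370 at 4-fold. Genes higher made up 60.9% of calls, against 50.2% at 20 CPM, 74.0% with no filter and 68.9% with a pseudocount of 5 CPM. Leaving out number 1, 2 or 4 in turn gave 1666 to 1733 higher and 1237 to 1316 lower genes, since fewer cells must be exceeded. All 8354 genes had a median of 0.23 with TMM, 0.18 with library totals and 0.24 with totals outside rRNA when not centred, and the calls were then 1366, 1310 and 1306 higher and 710, 755 and 781 lower. The untreated lead of 31 detected genes became −103.8 at 5 counts and −214.8 at 10 counts, and the DASHed lead of 221.6 became 31.2 without rRNA genes. The ratio of the coding share in untreated number 3 to the others' mean, 0.959, turned to 1.02 as a share of counts outside rRNA. The cause was not tested. Of 371 alternative values for list medians, 70 moved by more than the spread between cells, and of 1791 for named genes, 181 moved. Changes of sign were counted for called genes alone, with 0 found. A called gene has the same sign in both treatments by the rule, so the settings with a single treatment could not change it. It also lies beyond all 3 others, which left little room for a change when a number was left out or the pseudocount changed. The 0 is therefore not read as support. The sign of the median changed under at least 1 setting for the heat shock, splicing, proteasome, translation, chromatin, nuclear pore, glycolysis, zinc finger, nuclear lncRNA, small nucleolar and mitochondrial tRNA lists, beside those named in the report. Levels near 1 count, such as BAX or NDUFV1 in number 3, are limited by depth.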
